A study of Triticum aestivum with 12 samples.

Results

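The comparison described here is the variety difference in the low phosphorus response of winter wheat roots: the change with low phosphorus in the variety Xindong20 minus the change with low phosphorus in the variety Xindong23, for each probe set of an Affymetrix wheat array. This difference is called the interaction below. A positive interaction means that Xindong20 had the higher change, and a negative one that Xindong23 had it. All 12 of the 12 arrays in the series enter it, and 81 of the 61179 probe sets tested passed a limma test at an adjusted p under 0.05 (0.132% of those tested).

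The series measured RNA in seedling roots of both varieties. The 4 groups, with 3 arrays each, were Xindong20 at low phosphorus (LP), Xindong20 at conventional phosphorus (CP), Xindong23 at LP and Xindong23 at CP. Phosphorus in the Hoagland nutrient solution was 0.05 mmol/L at LP and 1.0 mmol/L at CP, with potassium chloride replacing part of the potassium phosphate at LP, and the solution was renewed every 3 days. After 14 days of culture the plants of every group were held for 7 days in 15% PEG-6000, a polymer that withholds water from roots, so all 4 groups were under drought and the LP to CP contrast is one between droughted roots. The plants had 18 h of light, at 25 °C by day and 20 °C by night. The series design names the 3 samples of a group biological replicates, and p-values measure the spread between these samples. LP3 stands for the LP array of replicate 3, and the other arrays are named likewise.

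Phosphorus is needed for nucleic acids, membranes and energy transfer, and plants take it up as phosphate through the root. When phosphate runs short, plant roots raise high-affinity phosphate transporters and secreted acid phosphatases, replace phospholipids in their membranes and alter growth, largely under transcription factors of the PHR family and the SPX proteins that hold them back. Drought acts on the same organ through abscisic acid and through proteins and solutes that protect cells from drying. Varieties of a crop can differ in how strongly such programmes are engaged, and a variety by phosphorus interaction is the measure of that difference. A constant offset between the varieties on the log2 scale cancels in it. A sequence difference under a probe need not act as such an offset, above all near background, and this was not tested.

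Most of these transcripts can be given only by the ID of their probe set. Of the 61179 probe sets, 1273 had a gene in the platform annotation and 59906 had none, and 1 of the 81 that passed was annotated. Values are log2 intensities. A group mean below 4.24, the lowest median of any array, is called dim. A difference measured against a dim group is read as a lower bound, since background limits the signal there, and a difference between dim groups has no bound.

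Of the 81 probe sets, 69 had a positive interaction (0.113% of those tested) and 12 a negative one (0.0196%). In size the interactions ranged from 1.00 to 6.32 on the log2 scale, with a median of 1.93. The LP to CP ratio thus differed between the varieties at least 2-fold in all 81, at least 4-fold in 37 and at least 16-fold in 9. Over all probe sets tested the median size was 0.31, the median interaction was -0.07 and 43.8% were positive. The split depended on the setting: quantile normalization of the arrays gave 44 positive and 21 negative, the ubiquitin covariate described below gave 1543 and 1083, and array weights gave 2041 and 2167, with more negative than positive.

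All 69 probe sets with a positive interaction had a positive LP minus CP difference in Xindong20, with a median of 1.37 and a range of 0.37 to 5.21. In Xindong23 their differences had a median of -0.48 and ran between -1.59 and 0.41, with 62 negative and 7 positive. The Xindong20 difference itself passed limma's test in 64 of the 69, where 0.976% of all probe sets rose at LP in that variety and 1.75% passed in either direction. The Xindong23 difference passed in 0 of the 69, where 0.00654% of all probe sets passed in either direction, and 43 of the 69 had an unadjusted limma p under 0.05 in Xindong23 (5.79% of all). These differences use the arrays that gave the interaction, so their direction is part of how the probe sets were chosen.

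The 12 probe sets with a negative interaction were the mirror image. All 12 fell at LP in Xindong20, with a median difference of -1.69 and a range of -3.97 to -0.76 (0.776% of all probe sets fell there). Their Xindong23 differences were all positive, with a median of 0.58 and a range of 0.15 to 1.78. None of the 12 passed in Xindong23, and 7 had an unadjusted limma p under 0.05. One of them, TaAffx_51365_1_S1_at, was dim in every group.

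By group means the 81 responses fell into classes. A response is called opposite where the LP minus CP differences of the varieties had unlike signs and both were at least 0.5 in size. It is called one-sided where the larger was at least 1 and the other under 0.5. Opposite responses numbered 36, of which 29 had a positive and 7 a negative interaction. Responses one-sided in Xindong20 numbered 33, with 32 positive and 1 negative, and responses one-sided in Xindong23 numbered 2, both positive. No response of the 81 was a stronger one, in which both varieties move the same way by at least 0.5, and the remaining 10 lay between the classes. In Xindong20 the group means differed at least 2-fold in 57 of the 81, and in Xindong23 in 7. A test for a large interaction favours unlike signs and a large change in at least 1 variety. The counts of classes and of 2-fold differences therefore follow in part from how the 81 were chosen. The classes depend on their limits: with 0.25 in place of 0.5 there were 63 opposite and 17 one-sided responses, and with 0.75 there were 14 and 49.

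**Figure D1:**
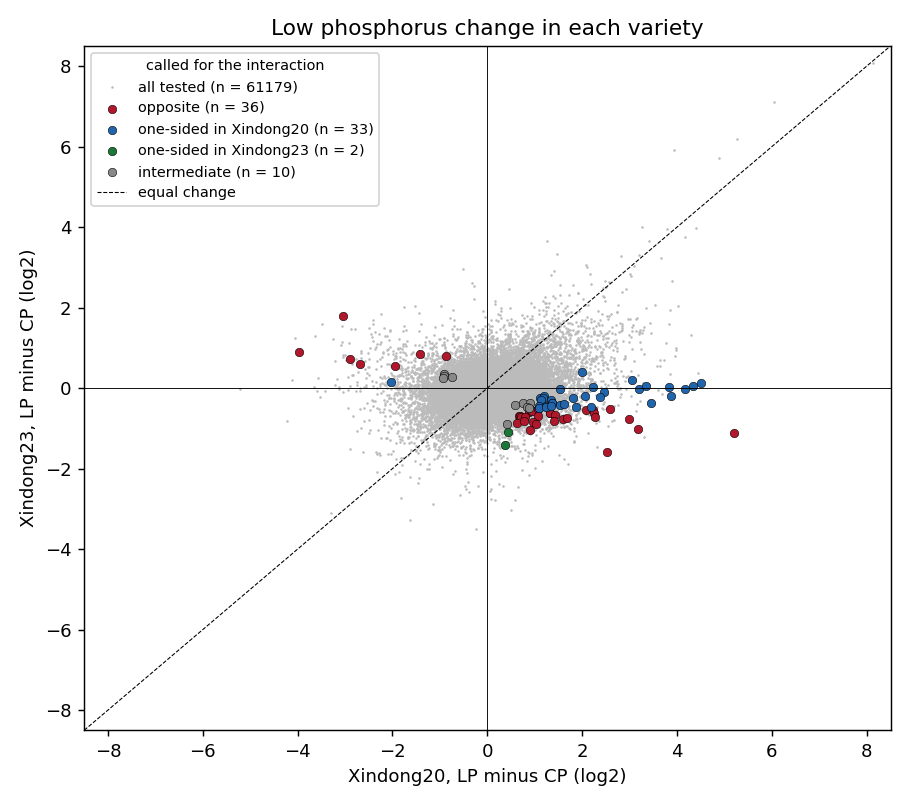
LP minus CP in Xindong20 (horizontal axis, log2) against LP minus CP in Xindong23 (vertical axis, log2), each point 1 probe set, with the 81 that passed the interaction test coloured by class. The 36 opposite responses lie in the quadrants of unlike sign, and the 33 responses one-sided in Xindong20 lie along the horizontal axis.

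Array values did not overlap between phosphorus levels in Xindong20 for most of the 81. These are the arrays that gave the interaction, so the counts describe the probe sets and follow in part from how they were chosen. Among the 69 with a positive interaction, all LP arrays of Xindong20 lay above all its CP arrays in 68, where this held for 9.18% of all probe sets. All LP arrays of Xindong23 lay below all its CP arrays in 48 of the 69 (7.51% of all). Among the 12 with a negative interaction, all LP arrays of Xindong20 lay below all its CP arrays in 12 (13.6% of all), and all LP arrays of Xindong23 lay above all its CP arrays in 9 (6.60% of all).

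The opposite responses with the largest positive interactions were those of TaAffx_80118_1_S1_at, Ta_7034_1_S1_at and TaAffx_56618_1_A1_at. TaAffx_80118_1_S1_at had 7.94, 8.30 and 9.26 in Xindong20 at LP, against 4.43, 2.63 and 2.83 in Xindong20 at CP. Xindong23 had 7.73, 7.84 and 7.92 at LP, against 8.56, 9.16 and 9.13 at CP. Xindong20 at CP was thus the single low group, and the other 3 groups lay well above the array medians. The transcript rose at least 36.9-fold at LP in Xindong20 (log2 5.21, limma adjusted p = 0.00268), while the Xindong23 difference was -1.12 (95% interval -2.14 to -0.10, limma adjusted p = 0.806). The interaction of 6.32 (SE 0.65, limma adjusted p = 0.0203) is a lower bound, because Xindong20 at CP was dim. It did not pass without CP3 of Xindong20, or without CP2, CP3 or LP3 of Xindong23, and lay between 5.94 and 6.89 with any 1 array left out.

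Ta_7034_1_S1_at had the smallest p of all probe sets. Its levels were 4.64, 5.26 and 5.08 in Xindong20 at LP, against 1.71, 1.83 and 1.92 in Xindong20 at CP. In Xindong23 they were 5.08, 5.06 and 5.12 at LP, against 6.02, 6.03 and 6.26 at CP. The varieties were level at LP, where the Xindong20 minus Xindong23 gap was -0.09 (limma adjusted p = 0.987), and far apart at CP, where it was -4.28 (limma adjusted p = 1.65e-06). The transcript rose at least 9.03-fold in Xindong20 (log2 3.17, limma adjusted p = 5.16e-05), and the Xindong23 difference was -1.02 (95% interval -1.37 to -0.66, limma adjusted p = 0.145). The interaction, a lower bound for the same reason, was 4.19 (SE 0.23, limma adjusted p = 0.000206), and it passed under all 22 alternatives tried.

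TaAffx_56618_1_A1_at was above the dim limit in 1 group only. It had 5.42, 5.98 and 6.03 in Xindong20 at LP, against 3.04, 3.73 and 3.10 in Xindong20 at CP. Xindong23 had 2.39, 2.72 and 2.30 at LP, against 2.82, 4.70 and 4.66 at CP. The rise in Xindong20 was at least 5.75-fold (log2 2.52, limma adjusted p = 0.0288), and the interaction was 4.12 (SE 0.63, limma adjusted p = 0.0472). The Xindong23 difference of -1.59 lies between 2 dim groups, and 1 of its CP arrays was close to the LP arrays, so its class as opposite rests on dim values. Of the 12 fits that left out 1 array, this interaction passed only without LP1 of Xindong20 or CP1 of Xindong23. It did not pass without both LP3 arrays (3.92, limma adjusted p = 0.0555).

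Opposite responses with a negative interaction were led by Ta_10626_1_A1_at. Its levels were 5.78, 5.14 and 7.33 in Xindong20 at LP, against 10.19, 10.41 and 9.55 in Xindong20 at CP. Xindong23 had 8.03, 7.25 and 7.82 at LP, against 7.37, 6.32 and 6.73 at CP. Xindong20 was the higher variety at CP (gap 3.24, limma adjusted p = 0.0101), and at LP its mean was the lower one, though that gap of -1.61 did not pass (limma adjusted p = 0.291). The transcript fell by 3.97 on the log2 scale in Xindong20, which is 15.6-fold (limma adjusted p = 0.00997), and the Xindong23 difference was 0.89 (95% interval -0.23 to 2.01). The interaction was -4.86 (SE 0.72, limma adjusted p = 0.0450).

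TaAffx_67846_1_A1_at had 4.77, 4.97 and 6.70 in Xindong20 at LP, against 8.81, 8.53 and 8.23 in Xindong20 at CP. In Xindong23 it had 8.57, 8.31 and 8.74 at LP, against 7.69, 6.41 and 6.16 at CP. In neither variety did the LP and CP arrays overlap, and Xindong23 at LP stood at about the level of Xindong20 at CP. The fall in Xindong20 was 8.26-fold (limma adjusted p = 0.0244), and the Xindong23 difference of 1.78 (95% interval 0.65 to 2.92, limma adjusted p = 0.509) was the highest among the 81. The interaction was -4.83 (SE 0.72, limma adjusted p = 0.0455).

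Ta_28776_1_A1_at followed the same pattern on a smaller scale. It had 5.70, 5.41 and 6.47 in Xindong20 at LP, against 9.46, 8.36 and 8.42 in Xindong20 at CP. Xindong23 had 7.89, 7.02 and 7.30 at LP, against 7.00, 6.57 and 6.49 at CP. The fall in Xindong20 was 7.41-fold (limma adjusted p = 0.00956), the Xindong23 difference was 0.72 (95% interval -0.09 to 1.53), and the interaction was -3.61 (SE 0.52, limma adjusted p = 0.0400). In all 3 of these probe sets LP3 of Xindong20 was the highest LP array of that variety. Their interactions were -5.42, -5.34 and -3.97 without both LP3 arrays, in the order given, and among the fits that left out 1 array each passed only without LP3 of Xindong20.

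Among responses one-sided in Xindong20, Ta_2870_2_S1_at had the largest interaction. Its levels were 8.76, 9.46 and 9.27 in Xindong20 at LP, against 4.41, 4.80 and 4.77 in Xindong20 at CP. In Xindong23 they were 4.95, 5.85 and 5.63 at LP, against 5.44, 5.05 and 5.56 at CP. Only Xindong20 at LP was high, and the 3 other groups lay within 4.41 to 5.85. The rise in Xindong20 was 22.7-fold (log2 4.51, limma adjusted p = 0.000143), and the Xindong23 difference was 0.13 (95% interval -0.46 to 0.71). The interaction was 4.38 (SE 0.37, 95% interval 3.55 to 5.21, limma adjusted p = 0.00569) and passed under all 22 alternatives.

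A further probe set of the same sequence cluster (the number shared by probe sets designed on related sequences) passed as well. Ta_2870_1_S1_at had 9.62, 10.65 and 9.71 in Xindong20 at LP, against 5.99, 6.73 and 5.63 in Xindong20 at CP. Xindong23 had 5.74, 6.18 and 6.70 at LP, against 6.05, 6.35 and 6.77 at CP. It rose 14.7-fold in Xindong20 (limma adjusted p = 0.00416) with a Xindong23 difference of -0.19, and its interaction was 4.06 (SE 0.53, limma adjusted p = 0.0321). Both probe sets of this cluster therefore gave high levels in Xindong20 at LP only, though they may share target sequence and are no independent measurements. Ta_2870_1_S1_at passed without LP1 or LP3 of Xindong20 and in none of the 10 other fits that left out 1 array.

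Ta_25839_1_A1_a_at and TaAffx_53825_1_S1_at show how one-sided responses can differ in the level of the variety that did not pass. Ta_25839_1_A1_a_at had 6.32, 6.89 and 7.79 in Xindong20 at LP, against 3.03, 2.15 and 2.82 in Xindong20 at CP. In Xindong23 it was high at both phosphorus levels, with 7.73, 6.62 and 7.59 at LP, against 7.22, 7.34 and 7.25 at CP. It rose at least 20.2-fold in Xindong20 (limma adjusted p = 0.00307), and its interaction was 4.29 (SE 0.56, limma adjusted p = 0.0321), a lower bound. TaAffx_53825_1_S1_at had 5.55, 5.88 and 7.60 in Xindong20 at LP, against 2.68, 1.84 and 2.02 in Xindong20 at CP. In Xindong23 it was dim throughout, with 2.07, 2.01 and 2.24 at LP, against 2.17, 2.25 and 1.96 at CP. It rose at least 17.9-fold in Xindong20 (limma adjusted p = 0.00499), and its interaction was 4.18 (SE 0.63, limma adjusted p = 0.0455). Its Xindong23 difference lies between dim groups and has no bound. Its interaction therefore has none either, and its class as one-sided rests on dim values. The first passed without LP1 or LP3 of Xindong20 or LP1 of Xindong23 and the second without LP1 or LP3 of Xindong20, and neither passed with any other array left out.

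Ta_28007_1_A1_at was one of 3 probe sets that passed under all 22 alternatives, beside Ta_7034_1_S1_at and Ta_2870_2_S1_at. It had 9.26, 9.41 and 9.53 in Xindong20 at LP, against 6.94, 6.88 and 6.98 in Xindong20 at CP. Xindong23 had 7.13, 7.10 and 7.30 at LP, against 7.19, 7.21 and 7.42 at CP. Only Xindong20 at LP was high, and the arrays of each group lay close together. The transcript rose 5.52-fold in Xindong20 (log2 2.47, limma adjusted p = 5.16e-05), the Xindong23 difference was -0.10 (95% interval -0.37 to 0.17), and the interaction was 2.56 (SE 0.17, 95% interval 2.18 to 2.95, limma adjusted p = 0.000875).

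Ta_6961_1_S1_at was the 1 response one-sided in Xindong20 with a negative interaction. It had 8.98, 7.96 and 8.47 in Xindong20 at LP, against 10.52, 10.43 and 10.56 in Xindong20 at CP. Xindong23 had 10.30, 9.87 and 10.26 at LP, against 9.88, 10.21 and 9.89 at CP. Only Xindong20 at LP was low. The transcript fell 4.09-fold in Xindong20 (limma adjusted p = 0.00745), the Xindong23 difference was 0.15 (95% interval -0.37 to 0.67), and the interaction was -2.19 (SE 0.33, limma adjusted p = 0.0455). It passed without LP1 or LP3 of Xindong20 and with no other array left out, and it did not pass without both LP3 arrays (limma adjusted p = 0.0506).

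The 2 responses one-sided in Xindong23 were Ta_14157_1_S1_at and TaAffx_12193_1_A1_at. Ta_14157_1_S1_at had 7.38, 7.29 and 6.92 in Xindong20 at LP, against 6.83, 6.66 and 7.00 in Xindong20 at CP. Xindong23 had 6.51, 6.69 and 6.24 at LP, against 7.79, 7.82 and 8.03 at CP. The arrays of Xindong20 overlapped between phosphorus levels and those of Xindong23 did not. Its Xindong23 difference was -1.40 (95% interval -1.78 to -1.02), which did not pass over all probe sets (limma adjusted p = 0.0608), and its Xindong20 difference of 0.37 did not pass either (limma adjusted p = 0.288). The interaction was 1.77 (SE 0.24, limma adjusted p = 0.0351). TaAffx_12193_1_A1_at had 6.67, 6.73 and 6.71 in Xindong20 at LP, against 6.44, 5.88 and 6.46 in Xindong20 at CP. In Xindong23 it had 6.0, 6.13 and 6.27 at LP, against 7.15, 7.17 and 7.33 at CP. Its differences were 0.44 in Xindong20 and -1.08 in Xindong23 (limma adjusted p = 0.180 and 0.131), and its interaction was 1.53 (SE 0.23, limma adjusted p = 0.0455). With 1 array left out, Ta_14157_1_S1_at passed only without LP1 or LP3 of Xindong20 and TaAffx_12193_1_A1_at only without LP3 of Xindong20.

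**Figure D2:**
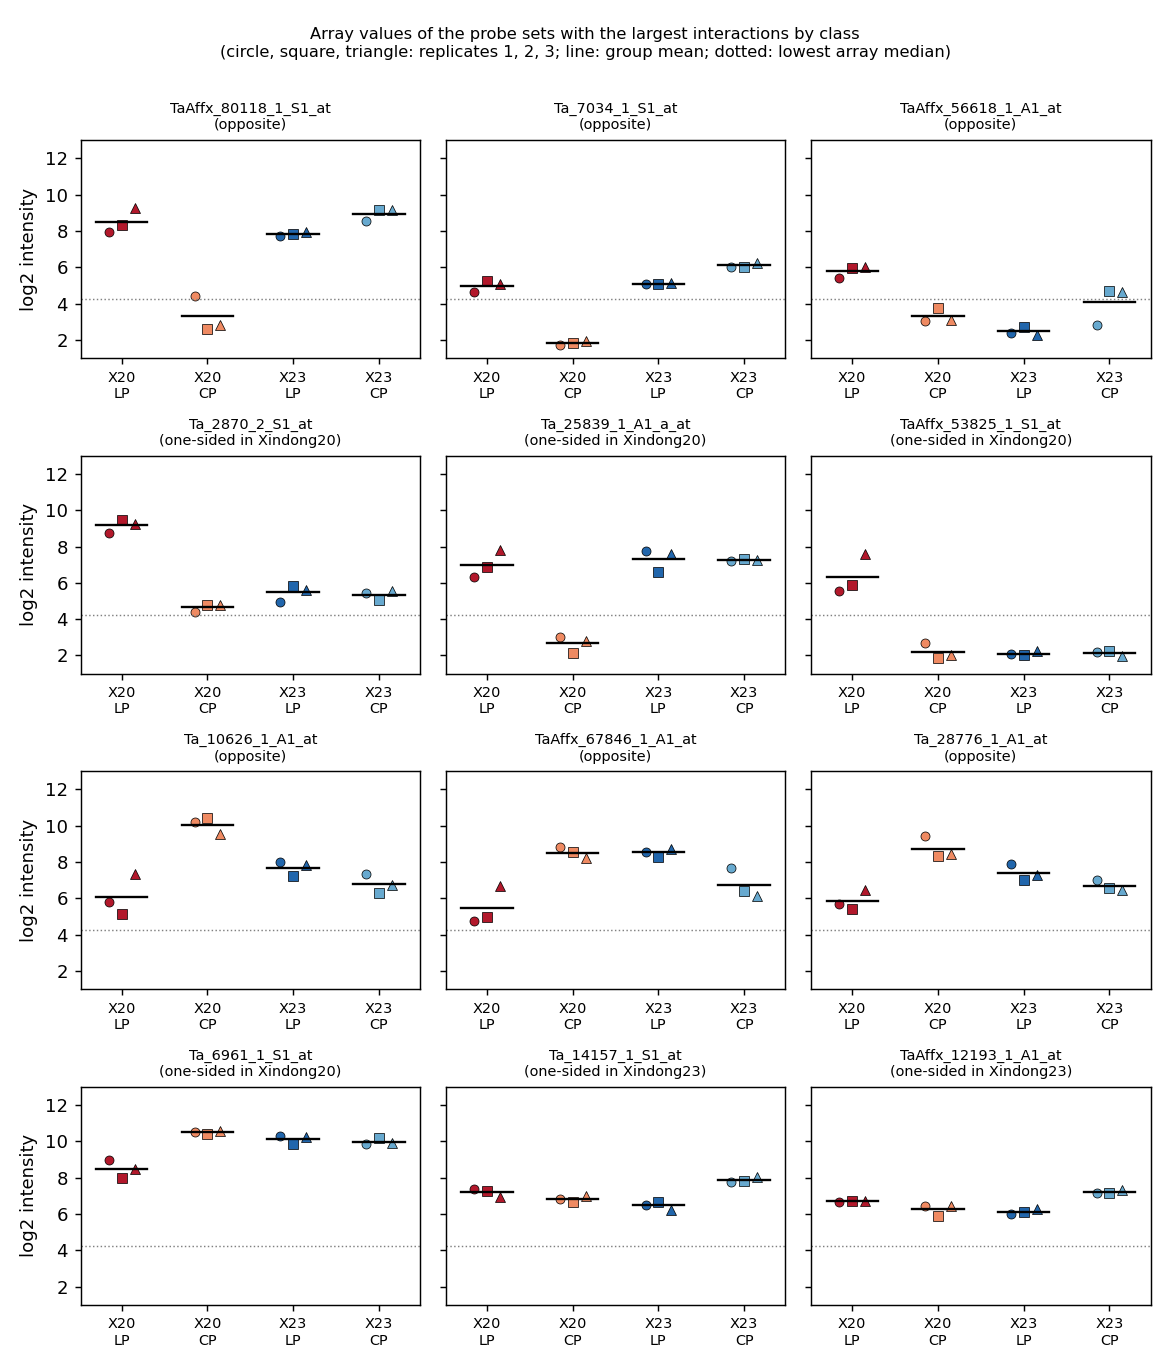
Array values (log2 intensity) of the 12 probe sets with the largest interactions by class, with Xindong20 (X20) at LP and CP followed by Xindong23 (X23) at LP and CP, lines at group means and a dotted line at the dim limit of 4.24. In the upper 6 panels Xindong20 is higher at LP than at CP, and in panels 7 to 10 it is lower at LP.

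Some of the smaller interactions belonged to bright probe sets. Ta_8678_1_S1_a_at had 10.71, 10.32 and 10.68 in Xindong20 at LP, against 11.46, 11.53 and 11.47 in Xindong20 at CP. Xindong23 had 11.77, 11.73 and 11.87 at LP, against 11.56, 11.43 and 11.46 at CP. The varieties differed by -1.22 at LP (limma adjusted p = 0.000931), against 0.00 at CP (limma adjusted p = 0.994). It fell 1.89-fold in Xindong20 (limma adjusted p = 0.0142), and the interaction was -1.22 (SE 0.18, limma adjusted p = 0.0455). Ta_8678_2_S1_x_at of the same cluster had an interaction of -1.20 (SE 0.17, limma adjusted p = 0.0357) and fell 1.93-fold in Xindong20 (limma adjusted p = 0.00938), while Ta_8678_3_S1_at, the third probe set of that cluster, had one of 0.02. With 1 array left out, both of the passing probe sets passed only without LP1 or LP3 of Xindong20.

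The annotated probe set among the 81 was Ta_20461_1_S1_at, which the annotation gives to the gene LOC606343 without a descriptive name. It had 7.89, 7.75 and 7.54 in Xindong20 at LP, against 6.58, 6.41 and 6.62 in Xindong20 at CP. Xindong23 had 7.20, 7.53 and 7.39 at LP, against 7.43, 7.67 and 7.65 at CP. The gene was lower in Xindong20 than in Xindong23 at CP (gap -1.05, limma adjusted p = 0.00450), and at LP the gap was 0.35 (limma adjusted p = 0.521). It rose 2.28-fold in Xindong20 (limma adjusted p = 0.00849), the Xindong23 difference was -0.21 (95% interval -0.53 to 0.11), and the interaction was 1.4 (SE 0.20, limma adjusted p = 0.0404). The 3 other probe sets of this gene had interactions of 1.09, -0.13 and 0.75 and did not pass. With 1 array left out it passed only without LP3 of Xindong20.

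The gap between the varieties shows the same 81 responses from the other side. The interaction is also the gap at LP minus the gap at CP. The directions and counts of gaps below therefore follow in part from how the 81 were chosen. For the 69 with a positive interaction, Xindong20 was above Xindong23 at LP in 62 and below it at CP in 66, by group means. The median Xindong20 minus Xindong23 gap of these probe sets was 0.71 at LP, against -0.92 at CP. The gap passed limma's test at LP in 27 of the 69 and at CP in 48. Of all probe sets, 0.899% passed at LP (0.570% with Xindong20 above and 0.329% with it below) and 2.35% at CP (0.894% above and 1.46% below). For the 12 with a negative interaction Xindong20 was below Xindong23 at LP and above it at CP in every case, with median gaps of -1.38 at LP, against 0.88 at CP, and the gap passed in 7 at LP, against 6 at CP.

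Taking 0.5 and 1 as limits for the gap as for the responses, the order of the varieties was reversed in 43 of the 81, with gaps of at least 0.5 of unlike sign. In 20 the gap was at least 1 at CP and under 0.5 at LP. In 12 it was under 0.5 at CP and at least 1 at LP, and the remaining 6 met none of these. These counts too follow in part from how the 81 were chosen, and shares over all probe sets are not given here. Ta_7034_1_S1_at and Ta_25839_1_A1_a_at are among those apart only at CP, where Xindong20 was dim. TaAffx_53825_1_S1_at and Ta_28007_1_A1_at are among those apart only at LP. Of the 69 with a positive interaction, 17 were dim in Xindong20 at CP, so their LP minus CP differences in Xindong20 are lower bounds. In 11 of the 17 Xindong23 was above the dim limit at CP and the gap at CP is a lower bound too. In the other 6, TaAffx_56618_1_A1_at and TaAffx_53825_1_S1_at among them, both varieties were dim at CP and the gap there has no bound.

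**Figure D3:**
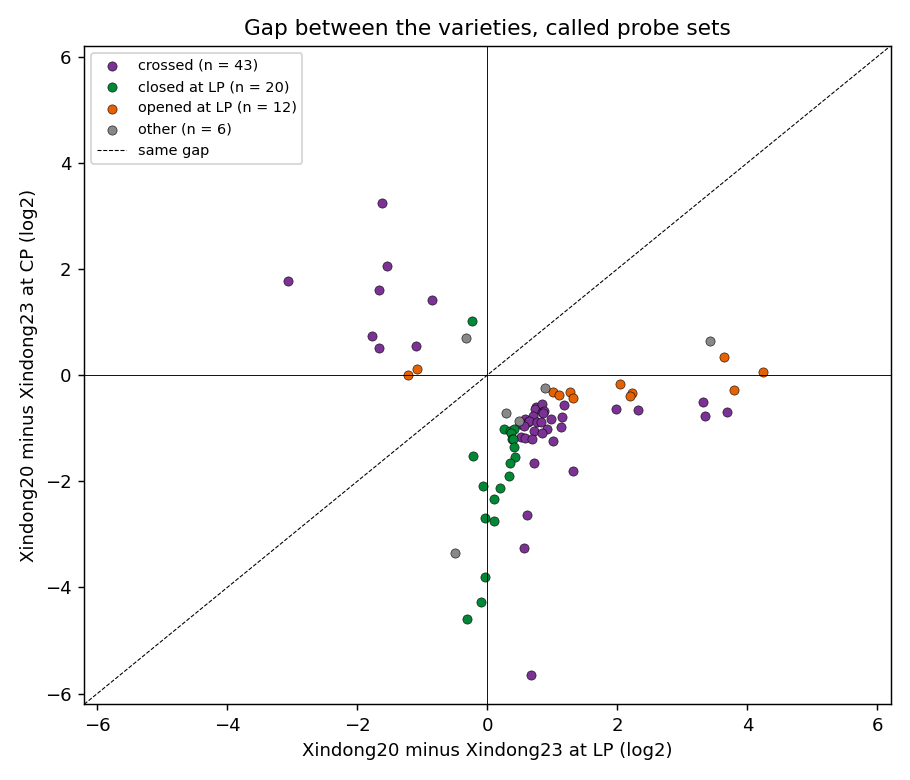
Xindong20 minus Xindong23 at LP (horizontal axis, log2) against the same gap at CP (vertical axis, log2) for the 81 probe sets. The 43 with reversed order (crossed) lie in the upper left and lower right quadrants away from the axes, the 20 apart only at CP (closed at LP) lie near the vertical axis, and the 12 apart only at LP (opened at LP) lie near the horizontal axis.

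The 81 probe sets were brighter than the array as a whole. Their median level was 7.07, against 4.31 over all probe sets, and 7 of them had a mean below the dim limit. The median SE of the interaction was 0.24 for the 81, against 0.31 over all, which the test favours, since it selects for a small SE. IDs beginning with TaAffx made up 29.6% of the 81, against 48.5% of all, and probe sets ending in _s_at, which can bind several related transcripts, made up 11.1%, against 4.31%. Those ending in _x_at, whose probes may bind unrelated transcripts, made up 9.88%, against 11.1%. Wheat is hexaploid, so a probe set may read several gene copies together.

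The 81 belonged to 79 sequence clusters, and 27 of these clusters had other probe sets on the array. Of the 114 others, 63 had an interaction of the same sign as the passing one. A single cluster, that of TaAffx_143995_3_S1_s_at, held 51 of them, with 12 of the same sign. Over all 114, 27 had an unadjusted limma p under 0.05 in the direction of the passing one. Of all probe sets on the array, 13.9% had such a p in either direction. Without that cluster, 51 of 63 had the same sign, and 25 had an unadjusted limma p under 0.05 in that direction, against 1 in the opposite direction. Probe sets of a cluster can share sequence and so are not independent of the passing one.

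Among the 102 genes with a descriptive name none passed the interaction test. The smallest limma adjusted p was 0.0871, and 13 of these genes had a probe set with an unadjusted p under 0.05. Over all annotated probe sets 12.4% were under that unadjusted level, against 13.9% of all probe sets. The named genes with the smallest p in each direction are therefore given as values that did not pass.

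On the negative side, rbcl, the large subunit of the carbon-fixing enzyme Rubisco, had 6.41, 7.31 and 6.70 in Xindong20 at LP, against 7.65, 8.39 and 8.19 in Xindong20 at CP, on TaAffx_128414_181_S1_at. In Xindong23 it had 7.38, 6.92 and 7.76 at LP, against 6.88, 6.58 and 6.36 at CP. The interaction was -2.01 (SE 0.42, limma adjusted p = 0.0871), but its other probe sets ranged from -0.87 to 1.19 and so had no common sign. The brightest of them, Ta_24976_1_S1_x_at with a mean level of 9.64, had 1.16 (SE 0.59). Of the 28 probe sets of rbcl, 13 had a positive interaction. SAHH, the S-adenosylhomocysteine hydrolase that removes a product of methyl transfer, had 12.70, 12.14 and 11.97 in Xindong20 at LP, against 13.19, 13.06 and 13.22 in Xindong20 at CP. Xindong23 had 12.99, 13.22 and 13.26 at LP, against 13.06, 12.96 and 13.01 at CP. Its interaction was -1.03 (SE 0.25, limma adjusted p = 0.121), and that of its other probe set was -1.46. CAT1, a catalase that breaks down hydrogen peroxide, had an interaction of -1.02 (limma adjusted p = 0.137), with Xindong20 dim at LP. Its other probe set, dim in all groups, had -0.39. Prx1 had -0.99 (limma adjusted p = 0.127) from levels that were dim in all groups, with -0.36 to 0.10 on its other probe sets. GA20ox1d, a gibberellin 20-oxidase that makes precursors of active gibberellins, had -0.58 (limma adjusted p = 0.177) from levels that were dim in all groups. Its other probe set, dim only in Xindong20 at LP, had -0.65.

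On the positive side, the histone gene H2A-9 had 10.01, 6.44 and 7.06 in Xindong20 at LP, against 5.95, 3.87 and 3.84 in Xindong20 at CP, on Ta_27657_14_S1_s_at. Xindong23 was dim on this probe set, with 3.63, 3.77 and 4.01 at LP, against 3.74, 3.53 and 3.78 at CP. The 5 other probe sets of H2A-9 were above the dim limit in Xindong23, such as Ta_27657_6_S1_x_at with means of 9.81 at LP, against 8.30 at CP. The interaction of 3.16 had an SE of 1.17 and did not pass (limma adjusted p = 0.262), and the 6 probe sets of H2A-9 ranged from 0.72 to 3.16. WZF1, a zinc finger gene, had an interaction of 0.82 (limma adjusted p = 0.158), and AdSS, the adenylosuccinate synthetase of AMP synthesis, one of 0.92 (limma adjusted p = 0.249). RPS29, a protein of the small ribosomal subunit, had 0.67 (limma adjusted p = 0.197), and -0.17 on its other probe set. PFK, a phosphofructokinase of glycolysis, had 0.77 (limma adjusted p = 0.311) at dim levels.

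**Figure D4:**
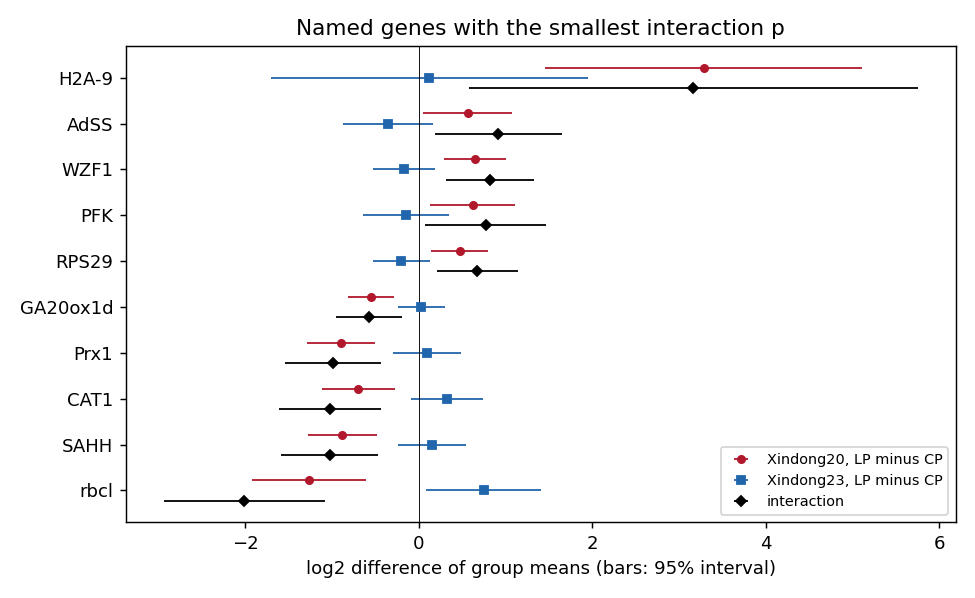
LP minus CP in Xindong20, LP minus CP in Xindong23 and the interaction (horizontal axis, log2 difference of group means, bars 95% intervals that are not adjusted for multiple tests) for the 10 named genes with the smallest interaction p, 5 in each direction. None of these interactions passed over all probe sets. The Xindong23 points lie nearer to 0 than the Xindong20 points in all 10 genes.

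Gene lists were described by their counts. Of 23 lists, 19 held at least 1 annotated gene, with 67 genes in all, counted on the brightest probe set of each. In limma 0 of the 67 passed, where 0.132% of all probe sets did. An unadjusted p under 0.05 was found for 5 of the 67, where 13.9% of all probe sets had one. Their median interaction was -0.17, against -0.07 over all probe sets. The list of phosphate transporters, phosphatases and SPX genes matched none of the annotated genes, and neither did those of abscisic acid signalling, aquaporins and nitrogen transport, so these pathways were not analysed here.

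For proteins that protect drying cells, the 5 dehydrin and LEA genes had a median interaction of -0.26, with 1 positive, and the LEA gene had -0.88 (SE 0.88). The 3 genes of fructan and sucrose breakdown had a median of -0.30, all negative, led by 6-FEH, a fructan exohydrolase, at -0.45. IVR1 among them was dim in all groups, at -0.15 (SE 0.20). The 3 antioxidant genes had a median of -0.41, all negative, with PER1, a peroxiredoxin, at -0.41. Of these, Trx-M had -0.04 (SE 0.20) at a mean level of 1.91, and CAT1 was dim in Xindong20 at LP. The 3 gibberellin genes had a median of -0.45, all negative, with GA20OX1-A at -0.45. GA20OX1-A was dim in all groups and GA20ox1b had a mean level of 1.79, so their differences have no bound. Among 5 genes of pathogenesis-related proteins and lectins the median was -0.42, with 1 positive, and WGA2, a wheat germ agglutinin, had -1.82 (SE 0.73, limma adjusted p = 0.300). Its levels in Xindong23 at LP were 3.78, 6.25 and 6.01, so LP1 stood apart there, and all other groups lay near the dim limit. The medians of the dehydrin and lectin lists fell on members with dim levels, COR410 (mean 2.75) and LTP3 (mean 4.02).

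The 11 histone and tubulin genes had a median interaction of 0.38, with 7 positive. H2A-3 had 0.89 (SE 0.80), and -0.02 on its other probe set. The tubulin gene Tubb5 had 0.74 (SE 0.62), and its 4 probe sets ranged from 0.74 to 0.98. The 5 genes of ribosomes and translation had a median of -0.17 with 2 positive, and Eif4B, a translation initiation factor, had -0.44. The 3 genes of starch and glycolysis had a median of -0.10 with 1 positive, AGP-S, a subunit of ADP-glucose pyrophosphorylase, at 0.82 and GBSS, a starch synthase, at -0.10. Of the medians given here, none changed sign with quantile normalization or median centring of the arrays. Without both LP3 arrays the starch and glycolysis median was 0.10 and the others kept their sign.

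As a check of the tissue, DMAS1, which makes the phytosiderophore of grass roots, had a mean level of 8.54 over all arrays and an interaction of 0.70 (SE 0.59). The 5 photosynthesis genes had a median interaction of -0.14 with 2 positive, with a mean level of 9.64 for rbcl and levels of 3.47 to 4.24, at or below the dim limit, for the 4 others. The 11 grain storage genes had a median interaction of -0.17 with 2 positive, and 8 of them had a mean level below the dim limit. The 3 above it were ALP at 9.71, Glu-3 at 6.63 and Gli-8 at 5.53. Signal on some probe sets of leaf and grain genes was thus not absent from these root samples. These levels are those of the brightest probe set of each gene. Most of the 28 probe sets of rbcl, and the other probe sets of Glu-3, were dim in all groups. RNA came from whole roots, so a change in the share of a cell type and a change within cells cannot be told apart.

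Both LP3 arrays stood apart from the other 10. The first principal component, with 34.7% of the variance, placed them at 173.8 (Xindong20) and 123.3 (Xindong23), against -79.5 to 14.3. The 3' minus 5' difference of the ubiquitin control probe sets was 2.84 and 1.16 on them, against -0.88 to -0.19. This difference had an interaction of its own of 0.75, and of 0.18 without both LP3 arrays. The mean of the 36 poly-A spike probe sets, which follow RNA added during labelling, was 4.85 ± 0.91 in Xindong20 at LP, against 7.09 ± 0.54 in Xindong20 at CP (SD, n = 3 each). In Xindong23 it was 5.37 ± 0.97 at LP, against 6.88 ± 0.23 at CP, which gives an interaction of -0.74, and of -0.75 without both LP3 arrays. The part of these differences in the interactions of the 81 was not tested beyond the fits below.

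The count of interactions that passed moved with every array left out, and the signs of the 81 did not. Leaving out an LP array of Xindong20 gave 147 for LP1, 19 for LP2 and 206 for LP3, and leaving out one of its CP arrays gave 13 for CP1, 8 for CP2 and 6 for CP3. Leaving out an LP array of Xindong23 gave 37 for LP1, 15 for LP2 and 3 for LP3, and leaving out one of its CP arrays gave 11 for CP1 and 3 each for CP2 and CP3. With both LP3 arrays left out 571 passed, among them 77 of the 81. The fits with the spike level or the ubiquitin difference as a covariate kept all 81. Each of the 81 kept its sign under every alternative that tested it, which was all 22 for 80 of them and 21 for TaAffx_51365_1_S1_at, which the filter on low values removed. The 81 were chosen in these same arrays for interactions large against their SE, so the kept signs follow in large part from that choice. A probe set passed in 6 to 22 alternatives, with a median of 10. Many lay near the threshold: the last inside had an adjusted p of 0.0497 and the first outside one of 0.0510, with 92 between 0.05 and 0.06 and 670 under 0.1. At an unadjusted p under 0.05 there were 8510 (13.9% of those tested), where chance would give 3059 if all arrays varied independently. This count was 6147 without CP2 of Xindong23 and 16377 with array weights. The excess over 3059 is therefore no count of interactions.

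**Figure D5:**
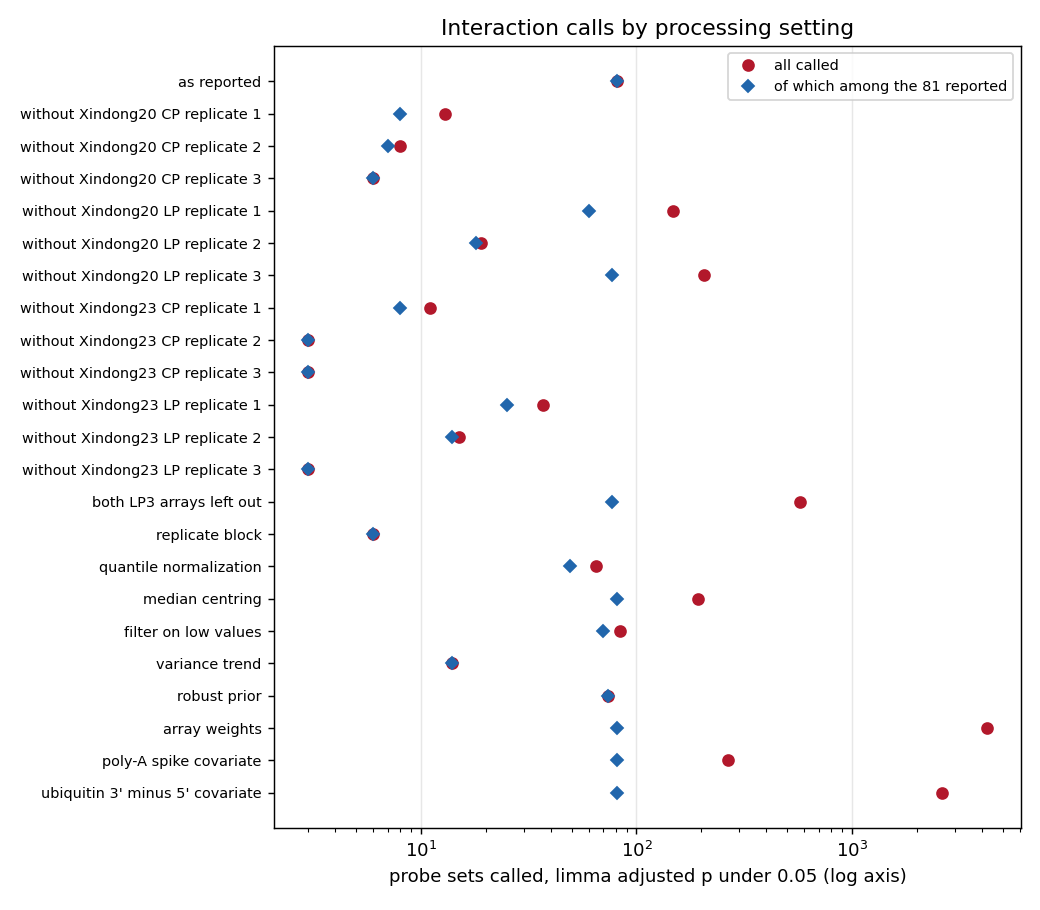
Number of probe sets that passed the interaction test (limma adjusted p under 0.05, horizontal log axis) as reported and under each of 22 alternative settings (rows), with circles for all that passed and diamonds for those among the 81. The circles run between 3 and 4208, and 3 probe sets passed in every row.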

How the data were processed

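Root RNA of 12 samples was hybridised to Affymetrix wheat arrays, with 100 ng of total RNA labelled for each per the labels' protocols. The values are those the authors deposited in 1 normalized table and are taken to be log2 intensities, a base judged from their range. The submitters' processing notes name Affymetrix Expression Console 1.4.1 together with RMA, which in general equalizes probe intensities between arrays before summarising them and can so remove a shift common to most transcripts. The deposited array medians still lay between 4.24 and 4.33. Probe set library, filters and build: not given in the sources used here. Arrays have no read depth, and their number limits the precision.

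The 111 control probe sets of 61290 were left out and 61179 were tested without a filter. limma 3.58.1 in R 4.3.3 fitted 1 mean per group to all 12 arrays (8 residual and 2.28 prior degrees of freedom). The interaction, LP against CP in each variety and the varieties at each phosphorus level were tested two-sided, with Benjamini-Hochberg adjustment over all probe sets within a contrast. "Rose" and "fell" are used of differences that passed. No detection calls were used. Intervals are 95% intervals from the moderated variance. The fit was tested on simulated data. Tables and figures were made with Python 3.11.15.

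The members, classes and gene lists were chosen with earlier results of these data known. Named were annotated probe sets that passed, in each class up to 3 with the largest interaction in each direction (1 per sequence cluster), the 5 named genes with the smallest p in each direction, and up to 2 members of each list with 3 or more genes. Exceptions, chosen after their values were seen, were Ta_28007_1_A1_at, the Ta_2870 and Ta_8678 partners, TaAffx_51365_1_S1_at, DMAS1 and the limits for gaps between varieties. Alternatives left out each array or both LP3 arrays, blocked the replicate number, renormalized (quantile, median centring), filtered low values, changed the variance prior, weighted arrays or added a control measure as covariate. IDs are printed with _ for dots. Of 771 annotated genes 770 matched RefSeq.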

Additional observations from a re-analysis of the deposited data

Results flagged for a closer look

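The 17 probe sets below had an interaction past limma's threshold, so their low phosphorus change differed between Xindong20 and Xindong23 by a direct test of the difference (log2, Xindong20 change minus Xindong23 change). They follow from the comparison itself and are not further support for it. The positive ones were TaAffx_80118_1_S1_at (6.32), Ta_2870_2_S1_at (4.38), Ta_25839_1_A1_a_at (4.29), Ta_7034_1_S1_at (4.19), TaAffx_53825_1_S1_at (4.18), TaAffx_56618_1_A1_at (4.12), Ta_2870_1_S1_at (4.06), Ta_28007_1_A1_at (2.56), Ta_14157_1_S1_at (1.77), TaAffx_12193_1_A1_at (1.53) and Ta_20461_1_S1_at (1.4). The negative ones were Ta_10626_1_A1_at (-4.86), TaAffx_67846_1_A1_at (-4.83), Ta_28776_1_A1_at (-3.61), Ta_6961_1_S1_at (-2.19), Ta_8678_1_S1_a_at (-1.22) and Ta_8678_2_S1_x_at (-1.20). Groups of 3 arrays were not tested for single arrays far from the others.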

How the results depend on the processing

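Counts below are of limma interactions at an adjusted p under 0.05, against 81 as reported (69 positive, 12 negative, 36 opposite, 35 one-sided, 0 stronger). With 1 array left out they ranged from 3 to 206 in all, 3 to 159 positive, 0 to 48 negative, 1 to 86 opposite, 2 to 94 one-sided and 0 to 2 stronger. Without both LP3 arrays there were 571 (431 positive, 140 negative, 212 opposite, 154 one-sided, 3 stronger). Quantile normalization gave 65 (44 positive, 21 negative), median centring 193 (163, 30, with 89 opposite and 70 one-sided) and the filter on low values 84 (63, 21). A variance trend gave 14 (13, 1, with 7 opposite and 6 one-sided), and a robust prior 74. Array weights, which gave the LP3 arrays 0.12 and 0.32, gave 4208 (2041, 2167, with 709 opposite, 716 one-sided and 15 stronger). The spike covariate gave 265 (195, 70, with 87, 130 and 5) and the ubiquitin covariate 2626 (1543, 1083, with 591, 537 and 7). A class limit of 0.25 gave 63 opposite, 17 one-sided and 1 stronger, and 0.75 gave 14 opposite. The cause of these shifts was not tested. Of values that did not pass, 1 changed sign: GBSS, at -0.10 as reported, lay between -0.24 and 0.0059 with 1 array left out, positive without Xindong20 CP replicate 1.

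Replicate numbers were not taken to pair the samples. Deviations of same-numbered arrays correlated above 0.1 in 6 of 18 pairs (-0.29 to 0.756), and 5 of 12 arrays matched best with their own number. The highest value, 0.756, was that between the LP3 arrays of the varieties. With 3 arrays per group these correlations cannot settle whether samples were paired. A fit with the replicate block called 6 (6 positive, 0 negative, 3 opposite, 3 one-sided). Arrays limit these counts, and dim groups limit the folds.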
